A study of Danio rerio with 2 samples.

Results

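The *slc25* genes encode the mitochondrial solute carriers, and they were taken as all genes of the deposited table whose zebrafish symbol begins with slc25a and a number, in either case. This rule found 59 of the 33396 listed genes, which carry 50 different symbols and 42 family numbers, and it used no measured value. The data were 1 RNA-seq library of control hearts and 1 library of hearts of homozygous *smyd4* L544Efs*1 embryos, which the study names MZ*smyd4* L544Efs*1 because their mothers were mutant as well. Both were collected at 72 hpf (hours post-fertilization) and are labelled as strain Tu. The methods name the controls as Tg(cmcl2:GFP), the sample record calls them wild type, and the mutants had been crossed to the same cardiomyocyte reporter, whose fluorescence guided the dissection. Each library was made from the pooled hearts of many embryos, so there is no replicate, no spread between samples and no test of the genotypes.

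Mitochondrial carriers are small proteins of the inner mitochondrial membrane, which is otherwise closed to charged metabolites. Each moves particular solutes, often in exchange for another. The ADP/ATP and phosphate carriers feed the ATP synthase and export its product, others shuttle reducing equivalents, fatty acids, amino acids or iron, and some supply cofactors. Heart muscle is rich in mitochondria, and the ADP/ATP carriers are among their most abundant membrane proteins.

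The values are FPKM, in which reads are divided by the length of the gene and the size of the library, so the levels of different genes can be compared. Genes that reached 1 FPKM in at least one library were tested. The measure was the difference of log2(FPKM + 1), mutant-labelled minus control, and a gene was called higher or lower where it exceeded 1 in size, a scale that understates the difference of genes with low values. The library totals worked out from the ratios of the FPKM values were 18840114 reads for control and 17960132 for the other library. They gave the reads behind each gene and exact Clopper-Pearson 95% intervals of the ratio of reads, which cover counting error only. *smyd4* itself was at 2.42 FPKM in both libraries. The paper reports that the *smyd4* transcript was lost in mutant embryos, by qRT-PCR and in situ hybridization. The deposited values do not show this loss, and the reason was not tested. The genotype of the second library could thus not be checked from this transcript, and it is therefore called the mutant-labelled library. Where values are given in pairs, that of the control comes first. Of 13 identifiers of cardiomyocyte markers 12 were tested, none of the 13 was at 0, and *myl7* was at 642.0 FPKM in control against 2977 FPKM. The tissue was bulk, in which fewer cells of a type and less RNA per cell cannot be told apart.

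Of the 59 *slc25* genes, 48 were tested, and the 11 others stayed at or under 0.772 FPKM in both libraries. In the mutant-labelled library 11 of the 48 were higher, 10 were lower and 27 passed the threshold in neither direction. Among all 17800 tested genes 33.3% were higher and 11.6% lower, against 22.9% and 20.8% of the carriers. The 21 carriers called in either direction compare with 44.9% of all genes. The median log2 difference of the tested carriers was 0.14 and that of all tested genes 0.49. These shares depended on how the libraries were scaled. With TMM (trimmed mean of M values) scaling, which brought the median of all genes to 0.04, 4 carriers were higher and 14 lower, against 21.2% higher and 19.3% lower among all genes. Scaled by median of ratios, 3 carriers were higher and 14 lower, against 21.1% and 19.4%. Upper-quartile scaling left 3 and 14, against 17.3% and 23.1%. Each of these scalings lowered the differences, with log2 shifts of 0.52 for TMM and median of ratios and 0.71 for upper quartile. They could therefore remove higher calls but no lower call. All 10 carriers that were lower in the deposited values thus stayed lower with TMM and upper-quartile scaling. Of the 11 higher ones 4 stayed higher with TMM and 3 with upper-quartile scaling. Those kept with TMM were *slc25a55a*, *slc25a24*, *slc25a17* and *slc25a43*, of which *slc25a43* was under the threshold with upper-quartile scaling. All 11 stayed above 0. When the trend of the differences with expression level over all genes was removed, 9 of the 10 lower and 3 of the 11 higher carriers kept their calls.

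**Figure D1:**
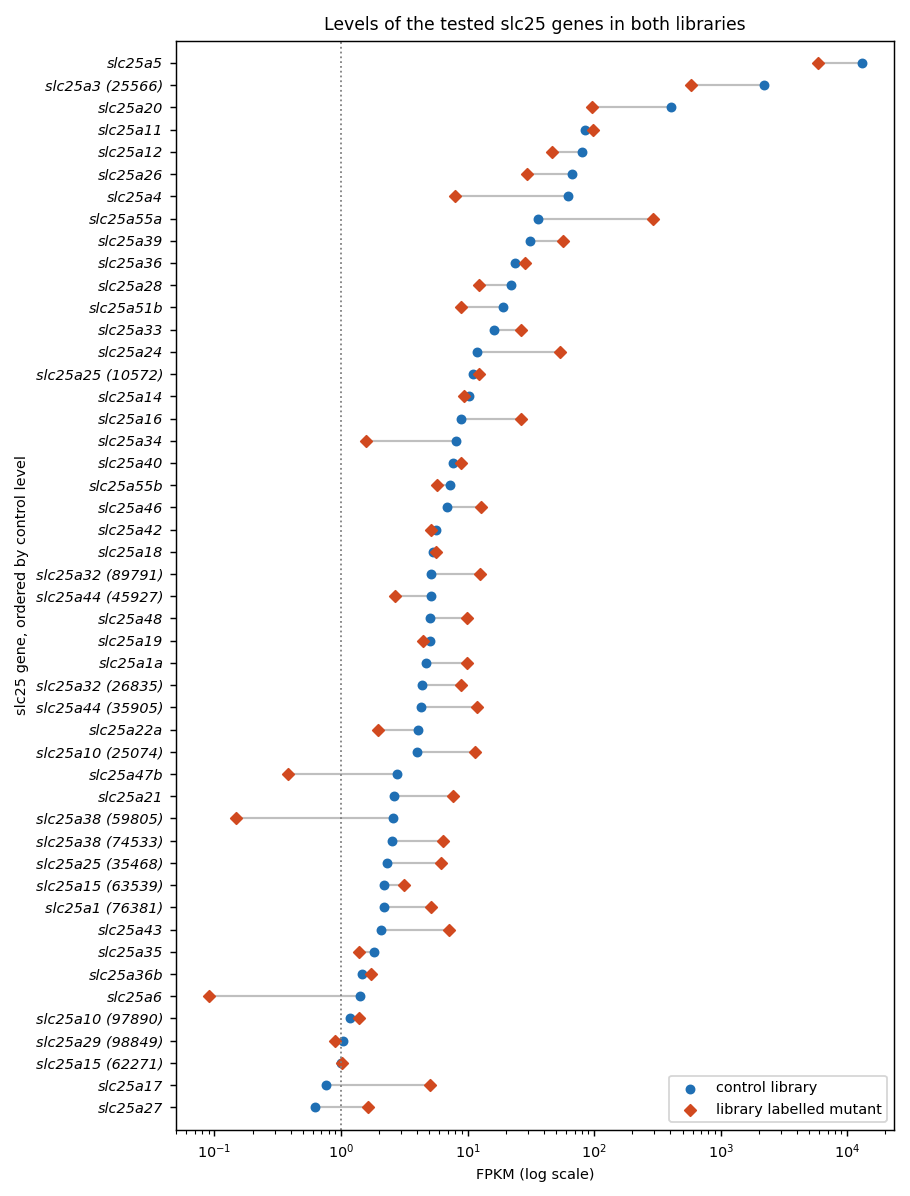
FPKM (log axis) of the 48 tested *slc25* genes in the control library (blue circles) and in the mutant-labelled library (orange diamonds), 1 library each, ordered by the control level, with the last 5 digits of identifiers that share a symbol and a dotted line at 1 FPKM. The most abundant carriers lie to the left in the mutant-labelled library, *slc25a5* at 5839 against 13037 FPKM, whereas *slc25a55a* lies far to the right, at 294.0 against 36.3 FPKM.

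The family was dominated by a few carriers. Its summed level was 16237 FPKM in control against 7399 FPKM in the mutant-labelled library, a ratio of 0.456 that became 0.318 with TMM scaling. *slc25a5*, *slc25a3* and *slc25a20* together held 96.3% of the control sum and 88.2% of the other. The summed level of the 56 remaining genes went the other way, from 598.2 FPKM to 876.2 FPKM, a ratio of 1.46 that became 1.02 with TMM scaling. Most of this rise was that of *slc25a55a* alone, which was at 36.3 FPKM in control against 294.0 FPKM in the mutant-labelled library. The ratio of 1.02 includes this gene as well. The 3 members named first were picked by their control level. As they held 96.3% of the control sum, a family sum this much lower had to come mainly from them.

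The adenine nucleotide carriers exchange cytosolic ADP for matrix ATP, and all 3 that were tested were lower. Among all genes 11.6% were lower, and 19.3% with TMM scaling. *slc25a5* (ENSDARG00000092553) was at 13037 FPKM in control against 5839 FPKM in the mutant-labelled library. It was 2.23-fold lower (95% interval 2.21 to 2.25), and among all listed genes it still ranked 6 in control and 3 in the mutant-labelled library. Its log2 difference of -1.16 was near the threshold and became -1.68 with TMM scaling. When the trend of the differences with expression level over all genes was removed it was 0.38, so that its direction turned. *slc25a4*, whose mammalian ortholog is the main isoform of heart and skeletal muscle, had the lowest log2 difference of all carriers. It was at 62.0 FPKM in control against 7.98 FPKM in the mutant-labelled library (1915 and 235 reads), 7.77-fold lower (6.78 to 8.93). Its difference of -2.81 became -3.29 with TMM scaling and -3.54 without the trend with level. *slc25a6* was far less abundant, at 1.41 and 0.0899 FPKM, from 33 and 2 reads. It passed the filter only through the control library and could not have been called higher. The ratio of its reads was 0.0636 with an interval from 0.00739 to 0.249. In both libraries *slc25a5* thus supplied nearly all of this transport class, which held 80.7% of the family sum in control and 79.0% in the mutant-labelled library.

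The phosphate carrier *slc25a3* imports the phosphate that the ATP synthase uses. One of its identifiers, ENSDARG00000025566, was at 2200 FPKM in control against 587.9 FPKM in the mutant-labelled library, and it was 3.74-fold lower (3.66 to 3.83). The log2 difference of -1.90 was -1.20 without the trend with level. The other, ENSDARG00000027424, had 0 reads in control and 3 in the mutant-labelled library and was not tested. *slc25a20*, the carnitine/acylcarnitine carrier that brings fatty acids to oxidation, was at 402.3 FPKM in control against 96.0 FPKM in the mutant-labelled library. It was 4.19-fold lower (3.99 to 4.41), and its difference of -2.06 hardly depended on the trend with level (-2.08). In the deposited values these carriers of ATP production and fatty acid import were thus lower together, by unequal factors. Without the trend with level *slc25a5* was not lower (0.38).

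Markers of several other tissues also differed between the libraries. Their counts stand beside 33.3% higher and 11.6% lower among all genes. Of 16 tested skeletal muscle markers 5 were lower and 3 higher, and their summed level was 12851 FPKM in control against 5797 FPKM in the other library, with none at 0. Of 13 tested liver and yolk markers 11 were lower and 0 higher, with sums of 36013 and 8207 FPKM. Of the 16 liver and yolk genes listed, *vtg2* was at 0 in both libraries, *vtg1* in control and *ahsg1* in the mutant-labelled library. Of 12 tested cardiomyocyte markers 6 were higher, 0 lower and 6 neither. Of those not called, *gata5*, *nppb*, *gata4* and 1 identifier of *myh6* had differences below 0. The sums were 2643 and 6296 FPKM, of which *myl7* alone was 642.0 and 2977 FPKM. Of the other marker lists, 5 of 6 tested exocrine pancreas genes and 8 of 12 neural genes were lower and none higher. Of these lower genes, *ela3l*, *amy2a*, *prss59.1*, *prss59.2*, *nefma*, *nefla* and *mbpa* passed the filter only through control and could not have been called higher. The same held for *ttr* of the liver and yolk list. The 16 lens and retina genes summed to 1.44 FPKM in control, where none reached 1 FPKM, and to 93.7 FPKM in the other library, which alone made 10 of them pass the filter. Erythrocyte genes were higher in 7 of 15 and lower in 0. Epidermis genes were higher in 3 and lower in 2 of 10, and endothelium genes higher in 1 and lower in 1 of 8. With TMM 21.2% of all genes were higher and 19.3% lower. The markers higher and lower were then 2 and 8 for skeletal muscle, 0 and 12 for liver and yolk, and 5 and 0 for cardiomyocytes. They were 0 and 6 for pancreas, 0 and 8 for neural and 8 and 0 for lens and retina genes. Erythrocyte genes gave 5 and 2, epidermis genes 1 and 2, and endothelium genes 1 and 1. The part of these tissues in the lower carriers, *slc25a4* included, was not tested.

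**Figure D2:**
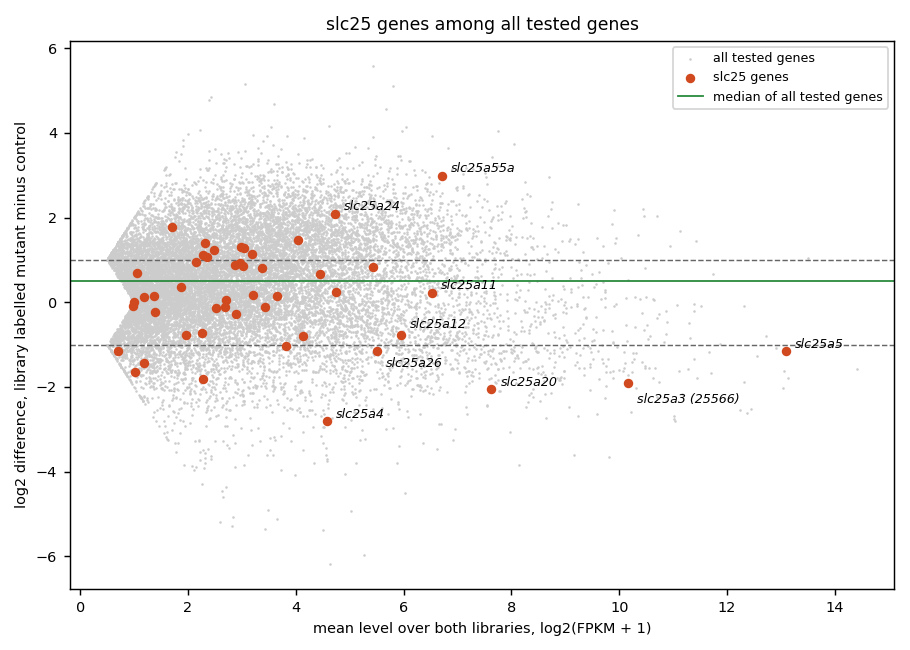
Log2 difference, mutant-labelled minus control, against the mean of log2(FPKM + 1) over both libraries, for all 17800 tested genes (grey) and the 48 tested *slc25* genes (orange), with dashed lines at -1 and 1 and the median of all tested genes, 0.49, in green. The genes *slc25a4*, *slc25a20* and *slc25a3* lie low at their level, *slc25a55a* and *slc25a24* lie high, and *slc25a5* lies at the far right, at -1.16.

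The calls were unevenly spread over expression levels. Of the 6 tested carriers with a geometric mean of at least 50 FPKM over both libraries, 3 were lower and 1 higher. Among all 1832 genes at this level 23.2% were lower and 32.4% higher. Of the 23 carriers from 2 to 10 FPKM, 8 were higher and 1 lower, and among all 6859 genes of that range 33.4% were higher and 10% lower. Of the 10 carriers from 10 to 50 FPKM, 2 were higher and 3 lower, against 43.6% and 10% of all genes there. Of the 9 carriers under 2 FPKM, 0 were higher and 3 lower, against 22.8% and 10.8% of all genes there. These 3, *slc25a6*, *slc25a38* (ENSDARG00000059805) and *slc25a47b*, passed the filter only through the control library, so they could not have been called higher. When both libraries had to reach 1 FPKM, 10 carriers were higher and 7 lower. Over the whole table, lower genes were thus most frequent at the highest level. The 10 lower carriers had a median control level of 40.6 FPKM and the 11 higher ones 4.01 FPKM. In the mutant-labelled library these medians were 8.39 and 11.4 FPKM. The groups were formed on the difference, which by itself favours a high control level among the lower carriers.

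The largest increase was that of *slc25a55a* (ENSDARG00000020893), a carrier for which RefSeq lists *slc25a22*, the symbol of a glutamate carrier, as a synonym. It was at 36.3 FPKM in control against 294.0 FPKM in the mutant-labelled library (236 and 1822 reads), 8.10-fold higher (7.07 to 9.31). Its share of the family sum went from 0.224% to 3.97%, and its rank from 2192 to 360 among all listed genes. The log2 difference was 2.98, and it was 2.47 with TMM and 2.28 with upper-quartile scaling. Its copy *slc25a55b* was at 7.20 and 5.78 FPKM, a difference of -0.27. The 2 tested genes of the glutamate carriers proper were not called, with *slc25a18* at 5.38 and 5.61 FPKM and *slc25a22a* at 4.06 and 1.97 FPKM. The latter was called lower after TMM scaling (-1.14).

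Among the ATP-Mg/phosphate carriers, which are regulated by calcium and adjust the adenine nucleotide content of the matrix, 2 of 3 tested genes were higher. With TMM 1 was higher. Among all genes 33.3% were higher, and 21.2% with TMM. *slc25a24* was at 11.9 FPKM in control against 53.7 FPKM in the mutant-labelled library, 4.52-fold higher (4.0 to 5.11). Its difference of 2.09 stayed past the threshold with TMM (1.59) and upper-quartile scaling (1.41). For *slc25a25* the identifier ENSDARG00000035468 was at 2.30 and 6.15 FPKM, a difference of 1.12 that became 0.71 with TMM. The more abundant ENSDARG00000010572 was at 11.0 and 12.2 FPKM. The other 3 genes of this group were under 1 FPKM, with *slc25a23* at 0 and 1 reads, *slc25a23a* at 7 and 7 and *slc25a24l* at 1 and 4. The ADP/ATP carriers and the ATP-Mg/phosphate carriers thus differed in opposite directions where called, but the summed level of the latter was only 26.0 FPKM in control against 73.1 FPKM in the mutant-labelled library.

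The malate-aspartate shuttle carries the reducing equivalents of cytosolic NADH into the matrix. *slc25a11*, its 2-oxoglutarate/malate carrier, was at 84.1 FPKM in control against 98.4 FPKM in the mutant-labelled library, a difference of 0.22 that became -0.29 with TMM scaling. *slc25a12*, its aspartate/glutamate carrier, was at 80.1 and 46.5 FPKM (-0.77, and -1.28 with TMM). The second aspartate/glutamate carrier, *slc25a13*, had 8 and 6 reads. Of the 5 tested enzymes of the shuttle, 2 were higher in the deposited values, the cytosolic aspartate aminotransferase *got1* (63.0 and 166.4 FPKM) and a gene listed as *got2* (10.5 and 37.0 FPKM). One was lower, the cytosolic malate dehydrogenase *mdh1*, at 1872 and 386.2 FPKM. With TMM *got1* was at 0.88 and only *got2* and *mdh1* kept their calls, which compares with 33.3% higher and 11.6% lower among all genes in the deposited values and 21.2% and 19.3% with TMM.

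The dicarboxylate carrier *slc25a10* (ENSDARG00000025074), which exchanges malate or succinate for phosphate, was at 4.01 and 11.4 FPKM and called higher, and its second identifier at 1.19 and 1.38 FPKM. *slc25a21*, a carrier of 2-oxoadipate, was at 2.63 and 7.61 FPKM and called higher as well. Neither stayed past the threshold with TMM (0.87 and 0.83). The citrate carriers export citrate for fatty acid synthesis in the cytosol. Their 2 tested genes lay just under the threshold, with *slc25a1a* at 4.67 and 9.83 FPKM (0.93) and *slc25a1* (ENSDARG00000076381) at 2.18 and 5.17 FPKM (0.96). Another identifier, ENSDARG00000080000, had 3 reads in each library.

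**Figure D3:**
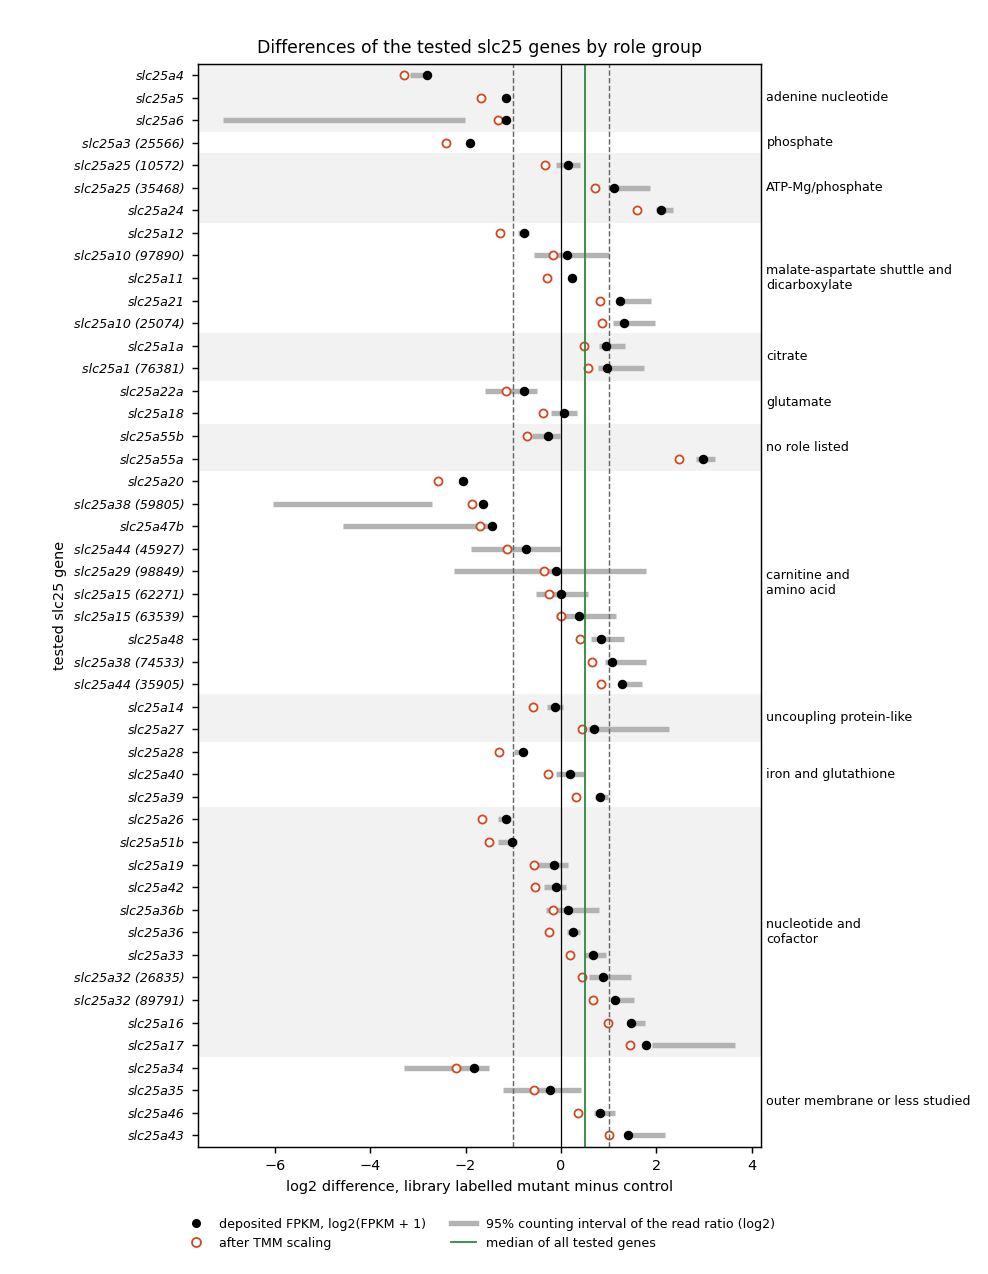
Log2 difference, mutant-labelled minus control, of the 48 tested *slc25* genes by role group, from the deposited FPKM (black) and after TMM scaling (open orange), with dashed lines at -1 and 1, the median of all tested genes in green, and 95% counting intervals of the read ratio as grey bars, which use no pseudocount and can lie farther from 0 than the points. The 3 adenine nucleotide carriers and *slc25a3* lie left of -1 under both scalings, and *slc25a24* and *slc25a55a* lie right of 1 under both.

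Of the 10 tested carriers of carnitine and amino acids, 2 were higher and 3 lower, against 33.3% and 11.6% of all genes. With TMM 0 were higher and 4 lower, against 21.2% and 19.3%. Beside *slc25a20*, the genes lower in the deposited values were 1 copy of *slc25a38* and *slc25a47b*, which both passed the filter only through control. Slc25a38 imports glycine for haem synthesis, and its copies parted. ENSDARG00000059805 was at 2.58 FPKM in control against 0.148 FPKM in the mutant-labelled library (73 and 4 reads, 17.4-fold lower with an interval from 6.51 to 65.6). ENSDARG00000074533 was at 2.51 and 6.35 FPKM (65 and 157 reads), 2.53-fold higher (1.89 to 3.44), a log2 difference of 1.07 that became 0.66 with TMM. The first thus held 50.8% of their summed level in control and 2.29% in the mutant-labelled library. *slc25a44*, a carrier of branched-chain amino acids in mammals, had copies that differed in opposite directions as well. ENSDARG00000045927 was at 5.13 and 2.69 FPKM (32 and 16 reads), and ENSDARG00000035905 at 4.29 and 11.8 FPKM (229 and 602 reads), with differences of -0.73 and 1.28. *slc25a47b*, whose mammalian ortholog is enriched in liver, was called lower, at 2.76 and 0.381 FPKM (38 and 5 reads), and its copy *slc25a47* had 21 and 10 reads. The liver and yolk markers were lower with it, and their part in this was not tested. The identifiers of the ornithine carrier *slc25a15* were at 1.00 and 1.02 FPKM and at 2.20 and 3.14 FPKM, and *slc25a29*, a carrier of basic amino acids, stayed near or under 1 FPKM with 6 and 5 and with 5 and 1 reads.

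Copies of a carrier did not always move together. Of the 42 family numbers 16 had 2 or more identifiers, and 9 had at least 2 tested copies. The differences of these copies lay more than 1 apart for 4 of the 9, *slc25a10*, *slc25a38*, *slc25a44* and *slc25a55*, and by 3.26 for *slc25a55*. They lay closest for *slc25a1* (0.02) and *slc25a36* (0.10). Of all tested genes 44.9% differed by more than 1 between the libraries. No distances for copies of other genes stand beside these, so whether 4 of 9 is many was not tested. The more abundant copy was the same in both libraries for 14 of the 16 numbers, all but *slc25a38* and *slc25a44*. Their copies were close in control (73 and 65 reads, and 5.13 FPKM from 32 reads beside 4.29 FPKM). Both belong to the 9 numbers with at least 2 tested copies. In the other numbers at most 1 copy reached 1 FPKM in either library. The counting rule is not known, and reads of close copies could have been divided between them.

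**Figure D4:**
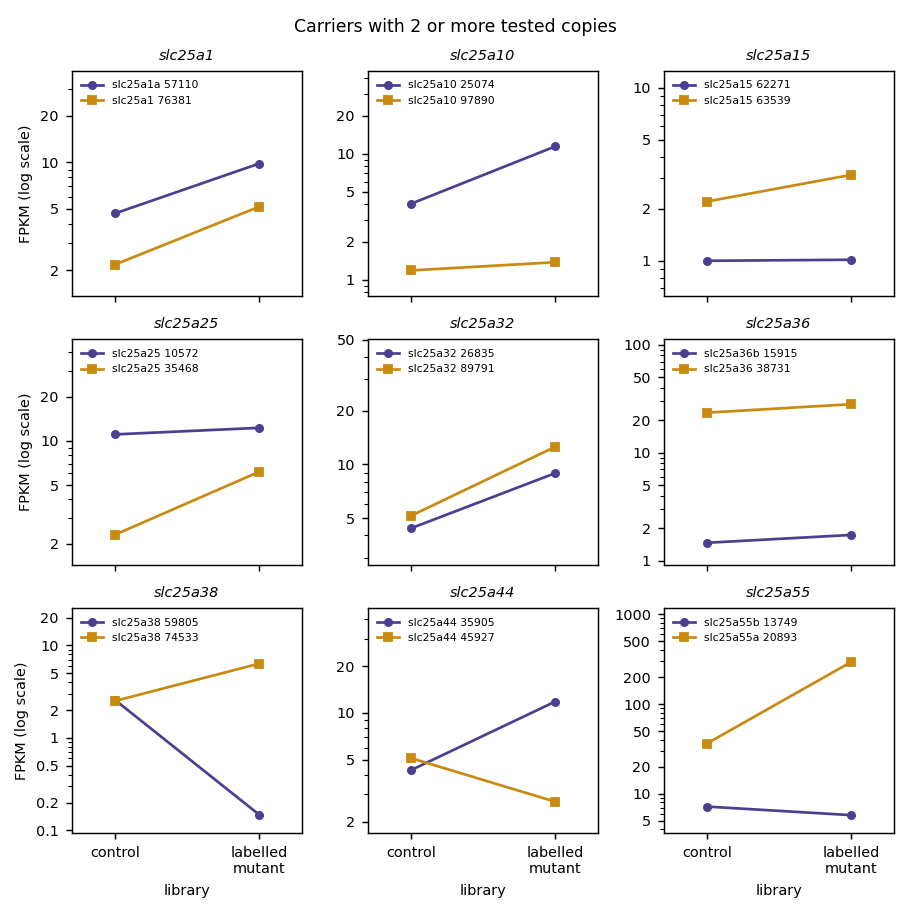
FPKM (log axes with different ranges) by library for the 9 carriers with at least 2 tested copies, each line a copy with the last 5 digits of its identifier, 1 library per point. The lines cross for *slc25a38* and *slc25a44*, part widely for *slc25a55*, and run nearly parallel for *slc25a1*, *slc25a32* and *slc25a36*.

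Mitoferrins import iron for haem and iron-sulfur clusters. *slc25a37* (mitoferrin 1), which developing red cells require in zebrafish, was at only 0.366 and 0.469 FPKM (18 and 22 reads), although erythrocyte markers were present, with summed levels of 3452 FPKM in control against 3032 FPKM in the mutant-labelled library. *slc25a28* (mitoferrin 2) was more abundant, at 22.1 and 12.2 FPKM, and its difference of -0.81 became -1.29 with TMM. The carriers of glutathione, *slc25a39* and *slc25a40*, were at 31.4 and 56.5 FPKM and at 7.70 and 8.85 FPKM. The differences, 0.83 and 0.18, were both under the threshold. Of 11 tested genes of haem synthesis and iron use 4 were higher and 3 lower, against 33.3% and 11.6% of all genes. With TMM 1 was higher and 3 lower, against 21.2% and 19.3%. Upper-quartile scaling gave 1 and 3 as well, against 17.3% and 23.1%. Of the synthases of the first haem precursor, *alas1* was at 433.4 and 78.6 FPKM and the erythroid *alas2* at 58.6 and 149.0 FPKM, so that their order was reversed between the libraries. The cysteine desulfurase *nfs1*, which provides the sulfur of iron-sulfur clusters, was at 8.27 and 23.1 FPKM (1.38, and 0.90 with TMM).

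Among the 11 tested carriers of nucleotides and cofactors, 3 were higher and 2 lower, against 33.3% and 11.6% of all genes. With TMM 1 was higher and 2 lower, against 21.2% and 19.3%. The summed level of the group was 157.4 FPKM in control against 157.5 FPKM in the mutant-labelled library. *slc25a26* brings in S-adenosylmethionine, the methyl donor of methyltransferases, and was at 66.8 FPKM in control against 29.4 FPKM in the mutant-labelled library, 2.27-fold lower (2.06 to 2.51). *slc25a51b*, of the NAD carriers, was at 19.1 and 8.80 FPKM, a difference of -1.04 just past the threshold, and its copy *slc25a51a* had 2 and 1 reads. On the other side, *slc25a16*, linked to coenzyme A transport, was at 8.95 and 26.5 FPKM (1.47, and 0.99 with TMM), whereas *slc25a42*, the other coenzyme A carrier, was at 5.65 and 5.19 FPKM. *slc25a17*, a carrier of peroxisomes rather than mitochondria, was at 0.762 and 5.03 FPKM and passed the filter only through the mutant-labelled library. Its 14 and 88 reads gave a ratio of 6.59 (3.73 to 12.6), and it stayed higher with TMM (1.44). The folate carrier *slc25a32* had copies at 5.15 and 12.5 FPKM (ENSDARG00000089791, called higher) and at 4.39 and 8.93 FPKM (ENSDARG00000026835, 0.88). The pyrimidine nucleotide carriers *slc25a33* and *slc25a36* were at 16.2 and 26.6 FPKM and at 23.5 and 28.2 FPKM, and *slc25a36b* at 1.46 and 1.73 FPKM.

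Of the less studied carriers, *slc25a34* was at 8.07 and 1.58 FPKM (75 and 14 reads) and lower, and *slc25a43* at 2.06 and 7.11 FPKM (73 and 240 reads) and higher. *slc25a43* is the next protein-coding gene to *slc25a5* in the RefSeq annotation of GRCz12tu, so that in the deposited values this pair of neighbours differed in opposite directions. Without the trend with level both were above 0, *slc25a43* at 0.93 and *slc25a5* at 0.38. With upper-quartile scaling *slc25a43* was under the threshold (0.85). *slc25a46*, a protein of the outer membrane linked to mitochondrial dynamics, was at 6.83 and 12.8 FPKM (0.82). The relatives of uncoupling proteins *slc25a14* and *slc25a27* were at 10.2 and 9.31 FPKM and at 0.624 and 1.64 FPKM. Uncoupling proteins belong to the same family by descent but carry other symbols. Of these, *ucp1* was at 46.8 FPKM in control against 7.16 FPKM in the mutant-labelled library and was called lower, and *ucp2* was at 330.2 and 281.1 FPKM.

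Other genes of mitochondrial transport and import and of fatty acid oxidation were listed for comparison. The list named other inner membrane transport includes the pyruvate carrier, the calcium uniporter and also metaxins. Of its 23 tested genes 7 were higher and 2 lower (median 0.51), a share of higher genes near the 33.3% of all genes. The numbers were 4 and 3 with TMM (median 0.08) and 3 and 3 with upper-quartile scaling (median -0.11). Of all genes, 21.2% were higher and 19.3% lower with TMM, and 17.3% and 23.1% with upper-quartile scaling. These shares also stand beside the lists that follow. Among those that differed most were the sideroflexin *sfxn4* (2.92 and 19.4 FPKM) and the uniporter subunit *smdt1b* (312.0 and 90.0 FPKM). Of 13 outer membrane porins and import receptors 5 were higher and 4 lower, among them the receptors *tomm22* (34.3 and 172.5 FPKM), *tomm70* (16.9 and 75.1 FPKM) and *tomm20* (321.7 and 108.6 FPKM). All genes were higher in 33.3% and lower in 11.6%. With TMM 2 of these 13 were higher and 5 lower, and with upper-quartile scaling 2 and 6. Of 19 tested enzymes of the carnitine shuttle and fatty acid oxidation, 8 were higher and 0 lower, against 33.3% and 11.6% of all genes. With TMM 5 of the 19 were higher, against 21.2% of all genes, and with upper-quartile scaling 3, against 17.3%. None was lower, against 19.3% and 23.1% of all genes. The median of these enzymes, 0.78, became 0.27 and 0.08. Those that differed most were *echs1* (33.0 and 132.7 FPKM), *decr1* (19.7 and 77.5 FPKM) and *acad9* (8.01 and 30.5 FPKM). The carrier *slc25a20* was thus called lower, and none of these 19 enzymes was.

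**Figure D5:**
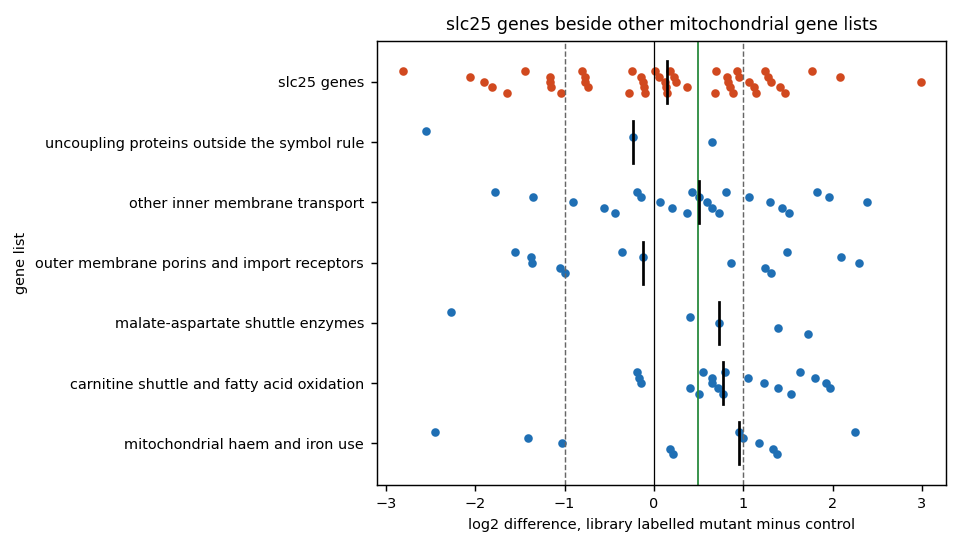
Log2 difference, mutant-labelled minus control, of each tested gene of the *slc25* family (orange) and of 6 related lists (blue), with the median of each list as a black bar, dashed lines at -1 and 1 and the median of all tested genes, 0.49, in green. The *slc25* genes spread from -2.81 to 2.98 around a median of 0.14, and the genes of fatty acid oxidation lie above -1 throughout.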

How the data were processed

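RNA-seq values of 1 control and 1 mutant heart library were used. The authors deposited FPKM values (reads divided by gene length and library size), a unit recognized from the values. The submitters' processing notes name Bowtie2 2.0.6 and TopHat2 2.0.9. Genome build, annotation and counting rule are not given in the sources used here. Symbols came from a table that matched 26433 of 33396 identifiers.

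Differences of log2(FPKM + 1) were computed for genes that reached 1 FPKM in a library and called past 1. Reads were worked out as the smallest whole numbers that give the FPKM ratios, and they summed to 91.5% and 91.0% of the library totals, so true reads can be multiples and intervals narrower. Gene lengths were worked out with these reads and can be too short in the same way. This limits the removal of the trend with gene length. Procedures were tested on simulated data. All members could be named. Values were printed for those with 10 FPKM or a difference over 1, and for copies. Of each related list the 3 genes most different with at least 10 FPKM are named, except for 1 gene that is not reported here, and *ucp2* was named after its values were seen. The members, the 6 related and 9 marker lists and the role groups were chosen with earlier results of these data known. Alternatives were other scalings, filters, pseudocounts and thresholds, and removal of lowess trends (span 0.3). Computations ran in Python 3.11.15 with scipy 1.17.1, pandas 2.3.3, numpy 2.4.6, matplotlib 3.10.9 and statsmodels 0.14.6.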

Additional observations from a re-analysis of the deposited data

How the results depend on the processing

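With 1 library per group no spread between samples is known, and intervals cover counting error only. No paired analysis was possible because each group was 1 library, and for the same reason no library could be left out. Against 11 higher and 10 lower carriers, the numbers of higher ones were 4 with TMM, 3 with median-of-ratios and 3 with upper-quartile scaling, 3 after removal of the trend with expression level and 4 after removal of that with gene length. A threshold of 2 left 4 carriers, 2 higher and 2 lower. The numbers of lower carriers under the scalings and trends were 13 or 14. The 3 scalings lowered the differences, so they could add lower calls but not remove any. The median difference of 0.14 became -0.27 with TMM (-0.265) and with median-of-ratios scaling (-0.268), -0.44 with upper-quartile scaling, and -0.18 and -0.45 without the trends with level and length. The ratio of the summed levels, 0.456, was 0.318, 0.317 and 0.278 under the 3 scalings and 0.487 without *slc25a5*. The difference of *slc25a5* turned to 0.38 without the trend with level, and the cause was not tested. No filter, a filter in both libraries, a pseudocount of 0.1 and summed copies of a symbol kept each number within 1.5 times. Counting intervals wholly beyond 2-fold, a rule chosen after seeing the data, held for 9 higher and 9 lower carriers. No share over all genes stands beside these counts. The intervals rest on the unscaled library totals and take no account of the 3 scalings.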
